A study of Drosophila melanogaster with 8 samples.

Results

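The genes described here are the core switch of programmed cell death in Drosophila melanogaster: the death activators hid, rpr, grim and skl, the caspase inhibitor Diap1, the caspases Dronc, Drice and Dcp-1, the adaptor Dark and the death ligand egr. They were chosen by symbol, and 9 of the 10 have a row among the 11397 genes of the authors' comparison. The tenth, grim, was found by its identifier among the 14094 genes with abundance values. RNA was measured in ovaries that the labels describe as enriched for cells resembling germline stem cells, as 4 control libraries and 4 libraries in which the DNA-binding protein Stonewall (Stwl) was overexpressed. Females of both groups were 4 to 5 days old, and about 35 ovaries were dissected for a library. The titles of the overexpression samples carry the name StwlEY, which the labels do not explain. The sources used here do not name the means of enriching the cells, the driver or the strain backgrounds. The labels leave unsaid whether the libraries of a group stem from independent crosses, so every p-value rests on a spread among libraries that may be technical. Nor do they say whether the groups share a background, so a strain difference and an effect of Stwl cannot be told apart. The body colour gene y, a common marker of fly transgenes, was at 0 to 0.0625 TPM in controls and 1.92 to 3.37 with overexpression. The groups did not overlap for y, but it reached a mean of 1 TPM only through the overexpression libraries, so no p-value is given. The eye colour gene w was not called, at 17.6 to 28.9 TPM in controls and 14.6 to 23.6 TPM with overexpression.

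Fly cells carry inactive caspases that are held in check by inhibitor of apoptosis proteins, chiefly Diap1. Death signals raise the small proteins Hid, Reaper, Grim and Sickle (the RHG family), which bind Diap1 and free the initiator caspase Dronc. Dronc assembles on the adaptor Dark and then cuts the effector caspases Drice and Dcp-1. Eiger, encoded by egr, is the fly tumour necrosis factor and can trigger death through JNK signalling. In the ovary the death of germline cysts in mid-oogenesis depends on caspases, Dcp-1 above all, whereas nurse cell death late in oogenesis largely does not need the RHG genes.

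Abundance is given as TPM, a transcript's share of the library, corrected for transcript length and scaled to the same total in every library. A gene was called at an adjusted p of 0.05 in a limma fit of log2(TPM + 1) over the 8898 genes that averaged 1 TPM or more. The overexpressed gene, stwl, was at 21.9 to 25.1 TPM in controls and at 45.5 to 67.8 TPM with overexpression, with no overlap. In bulk ovaries, fewer cells of a type and less RNA per cell cannot be told apart, and markers of other cell types moved with the groups. Of 13 muscle markers 11 were higher, with a summed level of 2750 to 3630 TPM in controls and 4450 to 5370 TPM with overexpression. Of 9 hemocyte markers 6 were higher (96.5 to 139 against 172 to 246 TPM), as were 8 of 9 chorion genes of late follicle cells (112 to 802 against 1520 to 7030 TPM). The 10 germline markers summed to 1280 to 1400 and 923 to 1320 TPM, with 1 lower in limma, bgcn, and 6 lower in the authors' deposited table. The differentiation factor gene bam was at 6.40 to 8.07 and 6.17 to 8.05 TPM. In limma no call was made among 8 tested niche, escort and early follicle cell markers (456 to 506 and 476 to 569 TPM), of which 3 were higher at an unadjusted p under 0.05 and in the authors' deposited table. How many of all tested genes pass that unadjusted threshold was not computed. Of 5 nerve markers 1 was tested and not called (4.64 to 7.93 and 4.06 to 6.51 TPM). No marker was at 0 in all libraries. What part cell makeup had in the changes of skl and egr was not tested. Overexpression replicate 1 stood apart on the second principal component (27.4, against -15.7 to 11.3 in the other libraries). In both groups replicates 1 and 2 had positive scores on it and replicates 3 and 4 negative ones. Overexpression replicate 1 also held 25.9 TPM of the germline marker osk, against 0.34 to 1.52 TPM in the other libraries.

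In controls Diap1 was the most abundant of the 10 genes, at 101 ± 7.24 TPM (SD, n = 4). Dcp-1 followed at 50.2 ± 3.28 TPM, Drice at 46.8 ± 2.39 TPM and egr at 37.1 ± 1.31 TPM (SD, n = 4 each). Lower in the order came hid at 20.1 ± 3.19 TPM, Dronc at 18.3 ± 1.87 TPM and Dark at 15.7 ± 0.902 TPM (SD, n = 4 each). The lowest of the genes above 1 TPM were rpr at 6.32 ± 2.11 TPM and skl at 5.84 ± 0.613 TPM (SD, n = 4 each). Among neighbours in this order, the ranges over controls overlapped between Dcp-1 and Drice, hid and Dronc, Dronc and Dark, and rpr and skl. With Stwl overexpression Diap1 again stood first, the mean of egr came second, though egr was above Drice in only 1 of 4 libraries, and skl was above rpr in all 4. There the ranges overlapped between egr and Drice, Drice and Dcp-1, and all neighbours from Dark down to rpr. Of the 8898 genes tested, 87.6% had a lower mean abundance than Diap1 and 21% a lower one than skl.

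**Figure D1:**
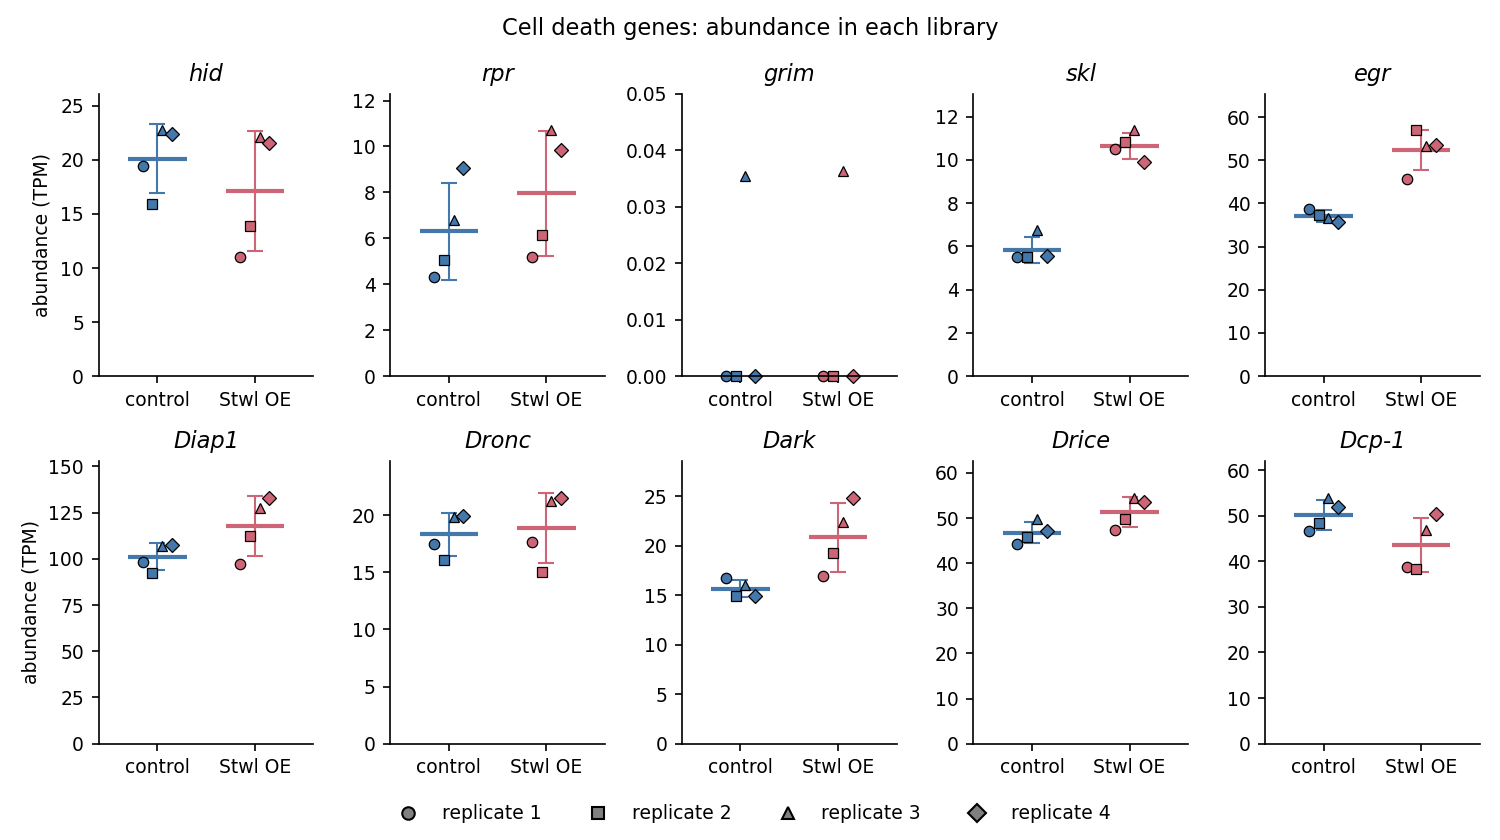
Abundance in TPM (vertical axes, each from 0) of the 10 genes in the 4 control (blue) and 4 Stwl overexpression (red) libraries, with symbols for replicates, horizontal lines for means and bars for SD, except for grim, where only libraries are shown. The groups are apart for skl, egr and, narrowly, Dark, and overlap for the other genes.

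With Stwl overexpression, skl and egr rose, and none of the 9 tested genes fell. In the limma fit 6.20% of all genes were called higher and 2.18% lower, against 2 and 0 of these 9. At an unadjusted limma p under 0.05, 3 of the 9 were higher, the third being Dark, and 0 lower. The share of all tested genes at an unadjusted p under 0.05 was not computed, so that count has no background to be set against. The median log2 fold change of the 9 was 0.21, against 0.014 over all tested genes. Values of the 2 groups did not overlap for skl, egr and Dark, all higher, as for 10.3% of all tested genes, and 0 of the 9 were lower without overlap, as 5.64% of all were. By the authors' own test, as given in the authors' deposited table, 4 of the 9 were higher at an adjusted p of 0.05 (skl, egr, Dark and Diap1) and 1 lower (Dcp-1), where 10.5% and 8.40% of all genes with an adjusted p were. The count of higher genes also grew to 4 without overexpression replicate 1, again skl, egr, Dark and Diap1. It was 4 as well with median-of-ratios scaling, where 1 gene was lower. Higher calls over all tested genes grew in the same settings, from 552 to 988 without overexpression replicate 1 and to 806 with median-of-ratios scaling. The growth was thus not particular to these genes.

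Among the RHG genes, the activators of death, only skl passed the test. Sickle is the RHG protein encoded by skl (FBgn0036786; chromosome 3L, 18438561 to 18439942, minus strand), and its annotated protein has 108 residues. Control replicates 1 to 4 held 5.54, 5.52, 6.76 and 5.54 TPM of skl, and overexpression replicates 1 to 4 held 10.5, 10.8, 11.4 and 9.92 TPM. The lowest overexpression library was thus well above control 3, the highest control, and the groups did not overlap. The means were 5.84 ± 0.613 and 10.7 ± 0.608 TPM (SD, n = 4 each), a ratio of 1.82. On the log2(TPM + 1) scale, which understates changes of low genes, the log2 fold change of skl was 0.77 (standard error 0.0938, 95% confidence interval 0.56 to 0.98, limma adjusted p 0.00158). The 2-sided exact permutation p of 0.0286 was the smallest that 4 against 4 libraries allow. In the authors' deposited table skl had a log2 fold change of 0.84 (standard error 0.14, adjusted p 6.84e-08), and it was the 1 gene of the 9 that they mark as Up, as are 3.46% of all genes in that table. The smallest absolute log2 fold change of any gene they mark is 0.60, above that of egr.

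The founding RHG genes did not pass. Reaper, from rpr (FBgn0011706; 3L, 18397535 to 18398435, minus strand), is the shortest of the family with 65 residues. Its RNA stood at 4.33, 5.06, 6.79 and 9.08 TPM in control replicates 1 to 4 and, in the same order, at 5.17, 6.15, 10.7 and 9.83 TPM with overexpression. The groups overlapped widely, and replicates 3 and 4 were higher than 1 and 2 in both. Its log2 fold change of 0.28 had a 95% confidence interval of -0.29 to 0.86 (limma adjusted p 0.606), so that a rise like that of skl lies inside it. For hid (FBgn0003997; 3L, 18167745 to 18185641, minus strand; 410 residues), a target of survival signalling through Ras, controls held 19.4, 15.9, 22.7 and 22.4 TPM. Overexpression replicates held 11.0, 13.9, 22.1 and 21.6 TPM. Replicates 1 and 2 of the overexpression group lay below every control and replicates 3 and 4 within the control range. The log2 fold change of hid was -0.26 with a 95% confidence interval of -0.75 to 0.23 (limma adjusted p 0.573).

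The remaining RHG gene, grim (FBgn0015946; 3L, 18302719 to 18304417, minus strand; 138 residues), was listed at 0 in 6 of the 8 libraries. It was at 0.0355 TPM in control 3 and at 0.0363 TPM in overexpression 3. It fell under the minimum abundance and was not tested. TPM keeps no depth, so the limit of detection is unknown. In the annotation 2 non-coding genes, asRNA:CR45974 and lncRNA:CR45975, overlap its exons and were not analysed here.

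The 4 RHG genes lie on the same strand within 272 kb of chromosome 3L (positions from the Ensembl BDGP6 annotation), in the order hid, grim, rpr and skl, with gaps of 117, 93.1 and 40.1 kb. Between them the annotation places 4 other protein-coding genes, CG7320, CheA75a, CG5103 and CG13700. The highest value of these 4 in any library was 0.3055 TPM, for CheA75a, and CG13700 was listed at 0 in all of them. Of the coding genes from hid to skl, hid, rpr and skl averaged over 1 TPM and were tested, and skl was the called one. The non-coding genes of the interval were not analysed here. The makeup of the RHG total differed between the groups: skl was 15 to 20.8% of the summed RHG TPM in controls and 24 to 39.4% with overexpression, with no overlap. The sum itself overlapped, at 26.5 to 37.1 TPM in controls and 26.7 to 44.2 TPM with overexpression.

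**Figure D2:**
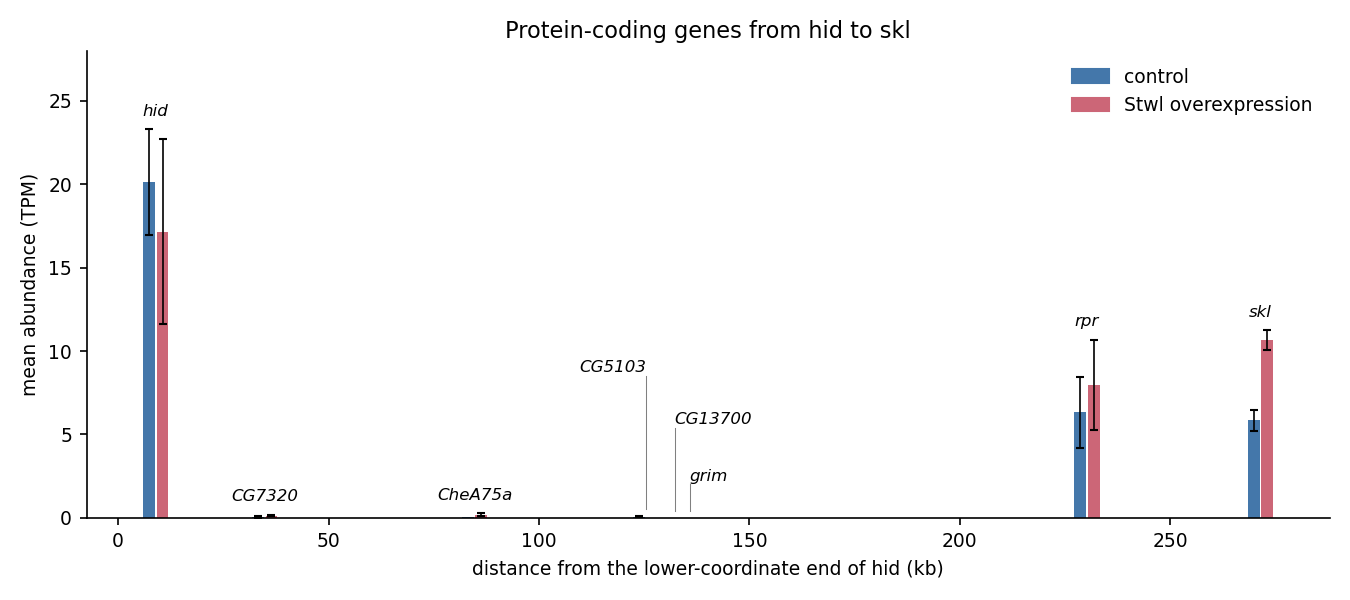
Mean abundance in TPM (vertical axis, bars, with SD where no library is at 0) of the protein-coding genes from hid to skl, placed by their distance in kb from the lower-coordinate end of hid, in controls (blue) and with Stwl overexpression (red; n = 4 each). The bars of skl are clearly apart, those of hid and rpr are within each other's SD, and grim and the 4 other genes are near 0.

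The death ligand gene egr (FBgn0033483; 2R, 10078366 to 10084210, plus strand) rose as well, from a higher base. Control replicates 1 to 4 held 38.8, 37.4, 36.5 and 35.7 TPM, the narrowest spread of the 9 tested genes, with a coefficient of variation of 3.54%. Overexpression replicates 1 to 4 held 45.8, 56.9, 53.4 and 53.5 TPM. All 4 were above every control, and overexpression 1 was the lowest of them. The means of 37.1 ± 1.31 and 52.4 ± 4.73 TPM (SD, n = 4 each) stand in a ratio of 1.41. Its log2 fold change of 0.48 had a standard error of 0.0738 (95% confidence interval 0.32 to 0.65, limma adjusted p 0.00431). In the authors' deposited table it was 0.47 with an adjusted p of 7.01e-08. Both skl and egr stayed called in all 19 alternative settings, with adjusted p-values up to 0.00858 and 0.0183.

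Eiger signals through the receptors Wengen and Grindelwald to the JNK cascade. Of 14 genes listed as Eiger receptors and JNK cascade, 1 rose, wgn, the gene of the receptor Wengen. It was at 43.3, 47.9, 39.8 and 42.7 TPM in control replicates 1 to 4 and, in the same order, at 47.2, 60.7, 61.9 and 63.4 TPM with overexpression. Overexpression 1 fell inside the control range and the other 3 libraries above it. The log2 fold change of wgn was 0.41 with a standard error of 0.101 (limma adjusted p 0.0371). That call was lost with no filter on low values and when any 1 of control 1, 3 or 4 or overexpression 2, 3 or 4 was left out (adjusted p up to 0.111 across settings). The other 13 genes had log2 fold changes between -0.08 and 0.23. Of the 14, 3 were higher in the authors' deposited table, wgn, Traf4 and bsk, the last being the JNK gene.

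The inhibitor gene Diap1 (FBgn0260635; 3L, 16038410 to 16051034, minus strand; 438 residues) did not pass. It stood at 98.4, 92.4, 107 and 107 TPM in control replicates 1 to 4 and, in the same order, at 97.1, 113, 128 and 133 TPM with overexpression. Overexpression 1 fell among the controls, and the other 3 were above all of them. The fitted log2 fold change of Diap1, 0.21, had a standard error of 0.1 (95% confidence interval -0.02 to 0.43, limma adjusted p 0.283). In the authors' deposited table Diap1 was at 0.18 with an adjusted p of 0.0113. Without overexpression replicate 1 the limma value was 0.29 with an adjusted p of 0.04. An antisense RNA gene, asRNA:CR45889, shares 347 exon bases with Diap1 and was not analysed here.

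The apoptosome genes, the initiator caspase and its adaptor, had unlike values. Dronc (FBgn0026404; 3L, 9968479 to 9971002, plus strand; 450 residues) was at 16.1 to 19.9 TPM in controls and 15.1 to 21.5 TPM with overexpression, with a log2 fold change of 0.03 (95% confidence interval -0.25 to 0.31, limma adjusted p 0.927). For Dark (FBgn0263864; 2R, 17020027 to 17026703, plus strand), the counterpart of mammalian Apaf-1, controls held 16.8, 14.9, 16.1 and 15.0 TPM. Overexpression replicates 1 to 4 held 16.9, 19.2, 22.4 and 24.8 TPM. The groups did not overlap, but overexpression 1 cleared control 1, the highest control, only narrowly. The log2 fold change of Dark was 0.38 with a standard error of 0.114 (unadjusted p 0.00895, limma adjusted p 0.0817). Dark passed in the authors' deposited table (log2 fold change 0.37, adjusted p 1.38e-05) and in 5 other settings, among them without overexpression replicate 1 (0.47, adjusted p 0.0142). An antisense RNA gene, asRNA:CR44390, overlaps 2779 bases of its exons, and the sources used here do not say whether counting used strand. Dark over Dronc, as a ratio of TPM within a library, was 0.75 to 0.958 in controls and 0.957 to 1.28 with overexpression.

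The effector caspase genes stood in opposite order in the groups. Drice (FBgn0019972; 3R, 29799658 to 29801584, plus strand; 339 residues) stood at 44.2, 45.9, 49.8 and 47.1 TPM in control replicates 1 to 4 and, in the same order, at 47.4, 49.8, 54.5 and 53.6 TPM with overexpression. Dcp-1 (FBgn0010501; 2R, 23551313 to 23553547, plus strand; 323 residues) was at 46.7, 48.4, 53.9 and 51.9 TPM in controls and at 38.7, 38.3, 46.8 and 50.4 TPM with overexpression. Neither passed the test, with log2 fold changes of 0.13 for Drice (95% confidence interval -0.02 to 0.28, limma adjusted p 0.303) and -0.21 for Dcp-1 (-0.43 to 0.01, limma adjusted p 0.266). Within every control Dcp-1 was above Drice, and within every overexpression library Drice was above Dcp-1. The ratio of Drice to Dcp-1 was 0.908 to 0.949 in controls and 1.06 to 1.30 with overexpression, and it does not depend on how libraries are scaled.

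In the authors' deposited table Dcp-1 was lower, with a log2 fold change of -0.24 and an adjusted p of 0.00314, and Drice was not called at an adjusted p of 0.212. Dcp-1 also passed with median-of-ratios scaling and quantile normalization (adjusted p 0.0247 and 0.0277). The gene lies wholly inside pita on the opposite strand and shares 239 exon bases with it. Since pita was at 41.5 ± 1.25 and 47.5 ± 7.86 TPM (SD, n = 4 each; log2 fold change 0.17, limma adjusted p 0.425), some reads cannot be told apart unless strand was used.

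**Figure D3:**
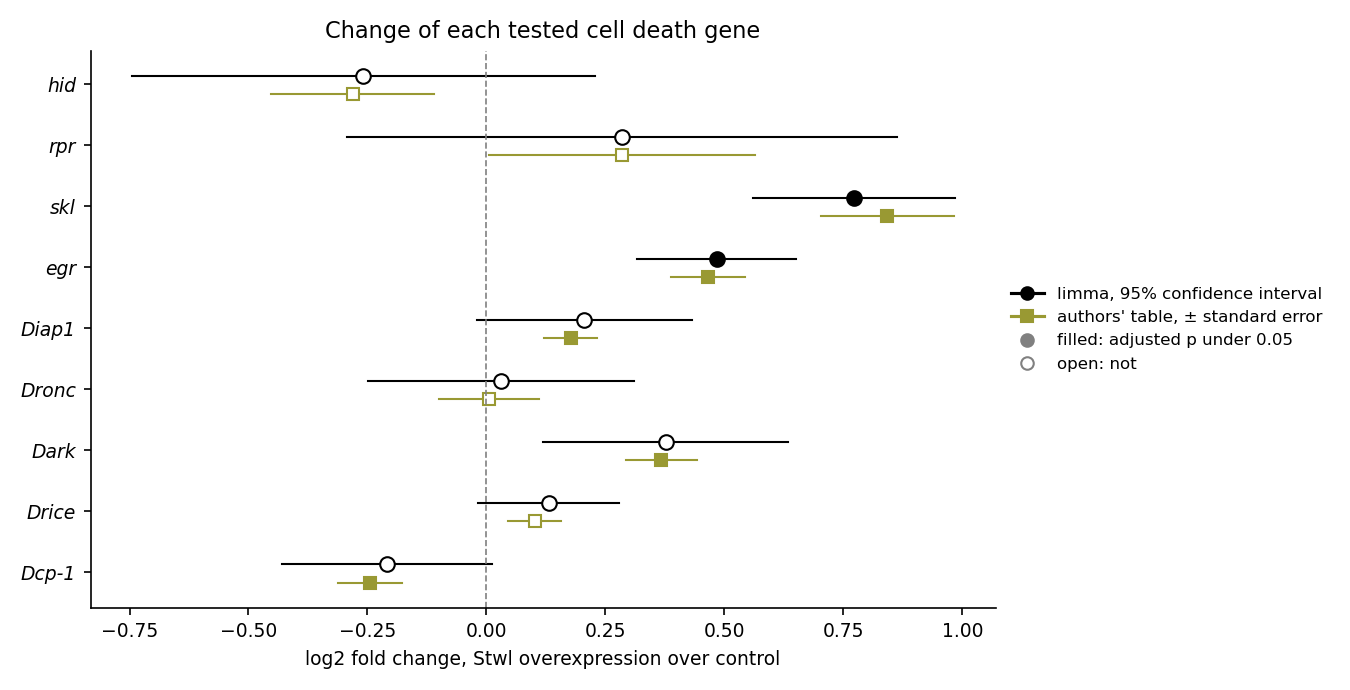
Log2 fold change of Stwl overexpression over control (horizontal axis) for the 9 tested genes, from limma on log2(TPM + 1) with 95% confidence intervals (black circles) and from the authors' deposited table with standard errors (olive squares). Filled symbols have an adjusted p under 0.05: skl and egr in both, with Diap1, Dark and Dcp-1 filled only for the authors' table.

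Ratios of TPM within a library compare these transcripts with no between-library scaling, and 6 ratios or shares were computed, as a description. Diap1 over the summed effector caspases was 0.98 to 1.09 in controls and 1.13 to 1.28 with overexpression, with no overlap. Diap1 over the summed RHG genes overlapped, at 2.90 to 3.49 in controls and 2.89 to 3.65 with overexpression, and so did Diap1 over Dronc, at 5.39 to 5.74 and 5.49 to 7.48. The effector caspases summed to 90.8 to 104 TPM in controls and 86.1 to 104 TPM with overexpression. Of the 6 ratios or shares, 3 did not overlap between the groups, the skl share of the RHG sum, Drice over Dcp-1 and Diap1 over the effector caspases. These are not independent, since Drice over Dcp-1 and Diap1 over the effector caspases both contain Drice and Dcp-1. The skl share contains the rise of skl and also hid, which lay below every control in overexpression replicates 1 and 2. In overexpression replicates 1 to 4 the share was 39.4, 35.1, 25.7 and 24.0%, with skl at 10.5, 10.8, 11.4 and 9.92 TPM. How often ratios of other gene pairs do not overlap was not computed, so the count has no background to be set against.

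**Figure D4:**
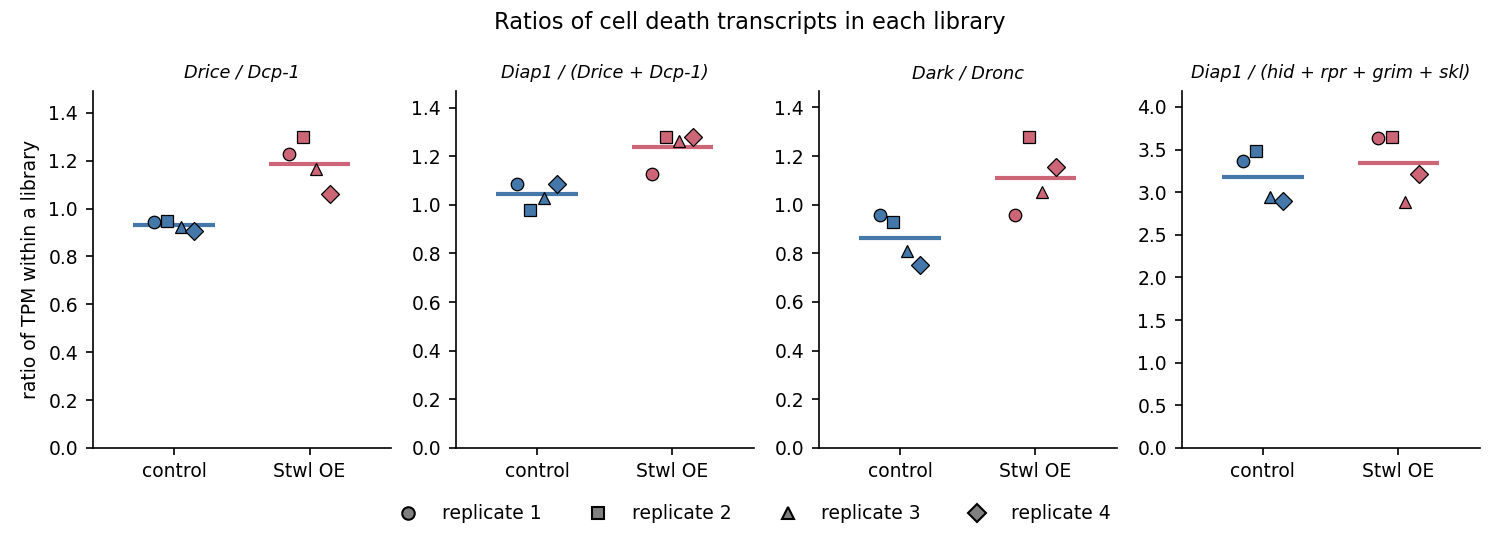
Ratios of TPM within each library (vertical axes, from 0) for 4 pairs of cell death transcripts, in controls (blue) and with Stwl overexpression (red), with symbols for replicates and lines for means (n = 4 each). Drice over Dcp-1 and Diap1 over the effector caspases do not overlap between the groups, whereas Dark over Dronc and Diap1 over the RHG sum do.

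Beyond these genes, 75 others of the cell death pathways were listed in 8 groups and 71 were abundant enough to test. Of these, 4 rose and 1 fell, against 6.20% and 2.18% of all tested genes, and their median log2 fold change was 0.0044. Among the other caspases Damm fell, the largest change of the 80 cell death genes tested. It was at 5.15, 4.24, 5.72 and 5.54 TPM in control replicates 1 to 4 and, in the same order, at 1.41, 2.03, 1.20 and 2.07 TPM with overexpression. Every overexpression library was far below the lowest control, with a log2 fold change of -1.21 and a standard error of 0.152 (limma adjusted p 0.0019). The authors mark Damm as Down in their deposited table, at -1.65. Its exons share 600 bases with CG42531 on the opposite strand, which was at 0.426 and 0.847 TPM on average. The caspases Dredd and Strica, with log2 fold changes of 0.12 and -0.35, did not pass in limma (Strica was lower in the authors' deposited table, at -0.43), and Decay was too low to test.

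Of 4 mitochondrial and Bcl-2 family genes, 2 rose. Buffy, which encodes a Bcl-2 family protein that mostly protects cells, averaged 18.4 ± 1.16 TPM in controls, with all 4 below the overexpression libraries at 24.4 ± 1.9 TPM (SD, n = 4 each; limma log2 fold change 0.39, adjusted p 0.016). Its call was lost without control replicate 1 or overexpression replicate 3 (adjusted p up to 0.056). Cyt-c-d, the cytochrome c gene needed for caspase activation in sperm, averaged 1.82 ± 0.512 and 4.99 ± 1.21 TPM (SD, n = 4 each), with no overlap between 1.33 to 2.48 TPM in controls and 3.37 to 6.09 TPM with overexpression. It had a log2 fold change of 1.08, standard error 0.19 (limma adjusted p 0.00843). It shares 305 exon bases with CG31808 on the opposite strand, a far more abundant gene at 74.7 and 94.1 TPM on average. The somatic paralogue Cyt-c-p was at 522 ± 16.4 and 528 ± 32.2 TPM (SD, n = 4 each), with a log2 fold change of 0.01.

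Of 11 tested genes of engulfment and DNA degradation, 1 rose. The gene drpr, whose receptor Draper lets follicle cells and hemocytes clear dying cells, was at 96.7, 89.1, 96.1 and 95.9 TPM in control replicates 1 to 4 and, in the same order, at 107, 118, 120 and 117 TPM with overexpression. The groups did not overlap, and drpr had a log2 fold change of 0.29, standard error 0.0548 (limma adjusted p 0.0118). It shares 115 exon bases with Oseg4, which was at 8.54 and 5.92 TPM on average. The hemocyte markers given above were higher in the same libraries, and their part in the value of drpr was not tested.

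The groups of p53 and the damage kinases, the Hippo pathway, other inhibitors and autophagy had no calls in limma. Among 6 genes of p53 and the damage kinases, lok, the Chk2 kinase gene that activates p53, was at 120 ± 24.2 and 80.9 ± 14.7 TPM (SD, n = 4 each). Its log2 fold change of -0.55 missed the threshold (limma adjusted p 0.0672), though lok passed in 7 of 19 settings: the scalings by median of ratios and by quantiles, without the 20 most abundant genes, with library weights, without control replicate 2, without overexpression replicate 4, and in the authors' test. The authors mark it as Down in their deposited table (-0.61, adjusted p 5.37e-05). The gene p53 was at 39.1 ± 3.32 and 41.8 ± 5.57 TPM (log2 fold change 0.09, limma adjusted p 0.725). None of 11 tested Hippo pathway genes passed, the route that limits Diap1 transcription through Yorkie, and their log2 fold changes lay between -0.21 and 0.08. Their most abundant members, mats and sd, had values of 0.0077 and -0.05. Among 6 other inhibitors and their antagonists, Det and Diap2 had log2 fold changes of 0.19 and 0.08, with no call in the group. None of 16 autophagy genes passed in limma either, with Atg8a at 532 ± 39.6 and 556 ± 101 TPM and ref(2)P at 128 ± 9.3 and 144 ± 23.9 TPM (SD, n = 4 each). At an unadjusted p under 0.05, 1 gene was lower in the p53 group (lok) and 1 in the Hippo group (CycE), and 1 was higher among the inhibitors (Det) and 1 in autophagy (Atg12). These unadjusted counts have no share of all tested genes to be set against. In the authors' deposited table lok, hpo, CycE and Atg1 were lower and no gene of these 4 groups was higher. Over all 8 groups, the limma count of 4 higher genes became 10 without overexpression replicate 1, and 2 without control replicate 1 or overexpression replicate 3. Higher calls over all tested genes moved the same way, from 552 to 988, 381 and 336 in these settings.

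**Figure D5:**
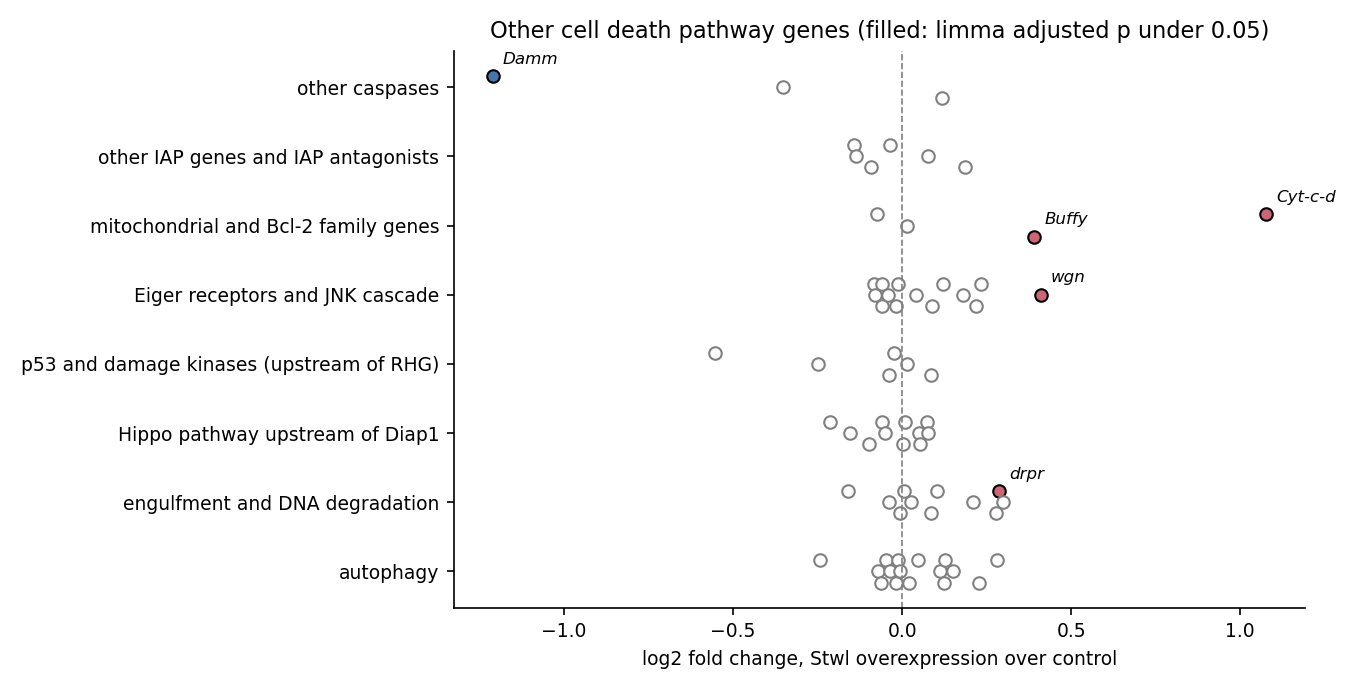
Log2 fold change of Stwl overexpression over control (horizontal axis) of the 71 tested genes of 8 other cell death groups, 1 circle a gene. Filled circles passed limma at an adjusted p of 0.05 and are named: Damm lower, and Cyt-c-d, wgn, Buffy and drpr higher.

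The authors' deposited table also carries marks from outside these libraries. It lists 5 of the 9 genes (hid, rpr, skl, Diap1 and egr) as upregulated in at least 1 of 2 other studies, where 21.2% of its 11397 genes are, and 3 of them (rpr, Diap1 and egr) in both, where 9.19% are. The conditions of those studies are not given in the file. A Stwl peak within 1 kb of the gene body is marked for 8 of the 9, all but Drice, and for 73.7% of all genes in the table. Both called genes carry a peak, as do Dronc and hid, which were not called.

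The genes whose profile over the 8 libraries was closest to that of a called gene were found by the root mean square distance of centred log2(TPM + 1) values among 8897 others. Closest to skl were Ugt35C1, ATPsynepsilonL and glob1, at 0.0863, 0.091 and 0.0933, where the median gene was at 0.41. Ugt35C1 averaged 0.671 TPM in controls and 1.86 TPM with overexpression, so it reached the minimum mean only through the overexpression libraries. Its log2 fold change ran from 0.28 to 1.45 over the alternative settings, so its place in this order is weak. Closest to egr were nrv1, CG9416 and disco, at 0.0397, 0.0477 and 0.0506, where the median gene was at 0.28. A gene with the same step between the groups is close by construction, and within the switch the nearest pair was Diap1 and Drice at 0.0939, whereas hid and skl were the farthest apart at 0.60.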

How the data were processed

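Polyadenylated RNA of 8 ovary samples was sequenced from TruSeq mRNA libraries, per the labels' protocols. The authors deposited TPM values for 14094 genes. Their headers say log2, but every column adds up to 1000000, so the deposited TPM was taken as linear. The submitters' processing notes name Salmon 1.10.1, DESeq2 1.37.4 and build BDGP 6, without roles. The authors' deposited table of 11397 genes holds a log2 fold change with its standard error, a test score, raw and adjusted p-values, and a baseMean signal that was not used, per the file headers. Depth per library is unknown, so no counting interval is given.

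The 8898 genes averaging 1 TPM or more were fitted as log2(TPM + 1) with limma 3.58.1 in R 4.3.3, with the group as the only term, a variance trend and Benjamini-Hochberg adjustment over all of them. The fit was tested on simulated data. Exact tests used SciPy 1.17.1, and figures matplotlib 3.10.9. Positions come from Ensembl release 115, and 2 listed symbols were matched without regard to case. Alternatives were other pseudocounts, filters, scalings, weights and variance priors, a replicate block, each library left out, and the authors' test. The named genes are all members, stwl, the called genes of each pathway group or else its 2 most abundant, the 3 closest profiles of each called member and the genes between hid and skl. Dredd, Strica, Decay, Cyt-c-p, pita, y, w, Traf4, bsk, ced-6, Rac2, bam, bgcn, osk, hpo, CycE, Atg1, Atg12 and the other overlapping genes were named after their values were seen. The members, lists and rule were chosen with earlier results of these data known.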

Additional observations from a re-analysis of the deposited data

Results flagged for a closer look

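Among the controls, replicate 3 stood apart for skl, at 6.76 TPM against 5.52 to 5.54 TPM in the other 3, a gap that passes Dixon's 95% critical value for 4 samples on the log2(TPM + 1) scale. Of 20 sets of 4 libraries checked, chance would give about 1 in 20. For grim, control replicate 3 at 0.0355 TPM and overexpression replicate 3 at 0.0363 TPM were each the only library of their group not listed at 0. A single value above 0 beside 3 zeros passes that criterion whatever its size, so these add nothing to the count.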

How the results depend on the processing

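The calls of skl, egr, drpr, Damm and Cyt-c-d held in every alternative in which each was tested (19, 19, 19, 18 and 18 settings). The count of higher genes among the 9 was 2 in most settings, 4 with median-of-ratios scaling and in the authors' deposited test, 6 with library weights, and 2 to 4 when 1 library was left out. The count of lower genes was 1 in the authors' test and under either other scaling, median-of-ratios or quantile, and 0 otherwise. With library weights rpr passed (0.54, adjusted p 0.0413), as did Drice (0.17, adjusted p 0.014). For the 71 wider genes, 7 were higher and 5 lower under median-of-ratios scaling, 7 and 6 under quantile normalization, 22 and 2 with library weights, and 8 and 6 in the authors' test. Their lower count was 2 without the 20 most abundant genes and 0 with a minimum mean of 5 TPM, which Damm does not reach. With 1 library left out, 2 to 10 were higher and 1 to 2 lower.

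Among all tested genes, 552 were higher and 194 lower. With library weights these were 2293 and 804, and in the authors' test 1113 and 893. Lower genes came to 626 under median-of-ratios scaling, 715 under quantile normalization and 379 once the 20 most abundant genes were left out, and the share of higher calls, 74% in the reported fit, was 56.3%, 48.1% and 63.4%. With 1 library left out, 336 to 988 genes were higher (988 without overexpression 1; 354, 340 and 336 without control 4, overexpression 2 and 3) and 99 to 248 lower (106, 99, 103 and 105 without control 1, 3 and 4 and overexpression 2).

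Directions turned for some uncalled genes. The log2 fold change of hid was 0.0027 with library weights. Dronc was at -0.0041 with quantile normalization and between -0.0343 and 0.1284 with 1 library left out. The value of mats was -0.0229 under median-of-ratios scaling, -0.0255 under quantile normalization, -0.0102 without the 20 most abundant genes and -0.0227 in the authors' test, and -0.0347 to 0.0568 with 1 library left out. For sd it was 0.0479 with library weights, and -0.1362 to 0.052 with 1 library left out, a range that was -0.0385 to 0.1616 for Atg8a. The cause of these shifts was not tested.

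With the replicate block, 2 of the 9 genes were higher, as without it. Standard errors were smaller with the block for all of them but Dark and egr. That of rpr was 0.113, against 0.256 without the block, and rpr stayed uncalled (limma adjusted p 0.189). The deviations of same-numbered libraries correlated at 0.128, -0.017, -0.134 and 0.144, so the numbers were not taken as pairs. TPM gives no depth, so the limit of detection for grim and other low genes is unknown.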

Other observations

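Within groups, replicates 3 and 4 were above 1 and 2 for most of the 9 genes, and with overexpression for most of all tested genes too. In controls both of replicates 3 and 4 were above both of 1 and 2 for 7 of the 9 tested genes (hid, rpr, skl, Diap1, Dronc, Drice and Dcp-1), as for 37.3% of all tested genes. With overexpression this held for 7 of the 9 as well (Dark in place of skl), as for 61.8% of all tested genes. The overexpression mean of hid was 12.5 TPM in replicates 1 and 2 and 21.9 TPM in replicates 3 and 4, and that of rpr 5.66 and 10.3 TPM. For skl these were 10.7 and 10.7 TPM, the smallest gap of the 9.

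Of the 10 genes, 6 lie on chromosome arm 3L, which also holds stwl, at 1.64 to 4.43 megabases from it, and skl is 4.04 megabases away. On that arm 7% of tested genes were called higher, against 4.87% on X, 6.41% on 2L, 7.02% on 2R, 5.41% on 3R and 14.1% of the 78 tested genes on chromosome 4. Genes called lower were 2.2% on 3L, and between 1.62% on 2L and 3.85% on chromosome 4 elsewhere. A difference of strain along 3L and an effect of Stwl cannot be told apart in these libraries.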
